A study of Rattus norvegicus with 102 samples.

Results

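The 7 genes described here mark the leptomeninges, the pia and arachnoid membranes that cover the brain and line the hippocampal fissure. They are Ptgds, Dcn, Slc6a13, Slc13a4, Aldh1a2, Igf2 and Igfbp2, and each was found by its gene symbol as a single row among the 26284 genes listed in the Illumina table, the 26341 in the Ion Proton table and the 26284 in a further table that the files call WT. The study dissected CA1, CA3 and the dentate gyrus (DG) from the hippocampus of male Fisher 344 rats and sequenced RNA of each subfield. The rats were 10 young animals (Y in the labels, 5 to 6 months old), 12 aged animals without impairment on the water maze (OG) and 12 aged animals with impairment (OB), the aged ones 17 to 22 months old. All 34 rats gave 1 library of each subfield in each of the 3 tables. The labels give no drug and no transgene. The subfields were separated by hand, and neither CA2 nor the subiculum was collected as a sample of its own.

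The genes were chosen by their normalized reads in these tables, since they had already been seen to stand far above their usual level in the CA3 library of young rat R9876. Their values in that library, and every comparison whose outcome that library can set, are therefore given as a description. The values that chose the members came from the same tables as the comparisons between groups, so the tests of the members are not independent support for the choice.

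The leptomeninges consist largely of fibroblast-like cells that secrete matrix, transport solutes between cerebrospinal fluid and brain, and supply growth factors and retinoic acid. Ptgds encodes the lipocalin-type prostaglandin D synthase, which is secreted into cerebrospinal fluid and is also made by oligodendrocytes. Dcn encodes decorin, a small leucine-rich proteoglycan that binds collagen. Slc6a13 encodes the GABA transporter GAT2, and Slc13a4 a sodium-coupled sulfate transporter. Aldh1a2 encodes a retinaldehyde dehydrogenase that makes retinoic acid. Igf2 encodes insulin-like growth factor 2, and Igfbp2 a protein that binds insulin-like growth factors. Igf2, Igfbp2 and Slc13a4 are known in the choroid plexus as well, the epithelium in the ventricles that secretes cerebrospinal fluid.

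Gene identifiers and chromosomes were those of the deposited tables, on the rat build rn5. Ptgds is ENSRNOG00000015550 on chromosome 3, Dcn is ENSRNOG00000004554 on chromosome 7, and Slc6a13 and Slc13a4 are ENSRNOG00000012876 and ENSRNOG00000011184 on chromosome 4. Aldh1a2 is ENSRNOG00000016042 on chromosome 8, Igf2 is ENSRNOG00000020369 on chromosome 1, and Igfbp2 is ENSRNOG00000016957 on chromosome 9. The tables count reads over the exons of a whole gene, so the values do not separate transcripts of a gene.

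The 250 bases before the transcription starts of the members were read in the RefSeq promoter sequences of the GRCr8 build, which held 5 of the 7 members with 6 starts. A link between these sequences and the members' values was not tested. The word GGGCGG, searched on either strand as a GC box, was present at 4 of these 6 starts and in 30.5% of the 33469 promoters of all genes. The word CCAAT was present at 2 of the 6 starts and in 34.02% of all promoters, and TATAAA at 0 of 6 and in 12.9%. Slc13a4 was the one member with both GGGCGG and CCAAT, which did not overlap there. The stretches below show the match nearest to the start in capitals, 5′ to 3′ on the strand of the gene, with GGGCGG in the promoters of Ptgds (chr3:28683108-28683137, minus strand, where it reads CCGCCC), Igf2 (chr1:207250587-207250616, minus strand), Igfbp2 (chr9:81864733-81864762, plus strand) and Slc13a4 (chr4:64956045-64956074, minus strand), and CCAAT in that of Aldh1a2 (chr8:80758544-80758573, plus strand).
Ptgds: tggggcagccgcCCGCCCtccctcacacca
Igf2: gaaggagggaggGGGCGGgtgcaaaggggg
Igfbp2: agaaggcaggggGGGCGGggagaagcaggc
Slc13a4: gctttgagaagtGGGCGGaaccactgccct
Aldh1a2: tgggccgcacgtCCAATaagaagcgccccc
No word was shared by all 5 members with a sequence, and a match describes only the letters in this window.

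Values are normalized reads, the reads of a gene divided by the size factor of its library, and the Illumina poly-A table is meant where no other is named. Its libraries held 3.25 to 42.8 M (mega) reads in genes, with a median of 10.7 M. All libraries of rats R1922, R1923, R1930, R1931, R9780, R9781 and R9782 held more than 25 M reads, and all others fewer. Of these 7 deeply sequenced rats, R1922, R1923 and R9780 were young and the rest aged. Their highest Slc6a13 value was 25.3 in DG and 31.7 in CA3, below the lowest of the other rats (34.3 and 32.8). In CA1 the values overlapped. The part of these rats in the comparisons and correlations below was not tested. The Ion Proton poly-A table repeated the same RNA samples at 4.47 to 21.4 M reads, and the WT table, whose library type is not stated in the sources used here, held 3.54 to 20.6 M. Some Ion Proton libraries detected few genes. The CA3 library of rat R1931 detected 15665, against 19607 in the highest library, and read 0 for Slc6a13, Aldh1a2 and Igf2. CA3 of rat R9781 (16100 genes) and CA1 of rat R2232 (15057) read 0 for Aldh1a2. By their expression over subfield marker genes, 13 libraries lay nearer to another subfield than to their labelled one in both poly-A tables, 9 of them CA3, 3 DG and 1 CA1. The CA3 marker list separates CA3 from DG poorly by its sum. Without the libraries described below as standing apart, its median sum was 5566 normalized reads in CA3 and 5938 in DG. Rats fell into 2 number series, 18 numbered below 9000 and 16 from 9000 up, and 10 of those 13 libraries came from the higher series. The CA3 and DG libraries of rat R9781 each lay nearer to the other's subfield. All 13 stay in the comparisons, and the counts without them are given beside the results of the subfields. The labels do not say what the series mean, and rats of every group were in both. Per its methods the study worked at 2 sites whose numbers of young and aged rats equal those of the series, but no label ties a rat to a site, so site and series cannot be told apart.

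All 7 members were measured in all 3 subfields. In CA1, the normalized reads of Ptgds lay between 1853 and 59576 over the 34 rats, with a median of 3177. The CA3 libraries lay between 1224 and 128125 (median 2996), and the DG libraries between 1038 and 3674 (median 1716). Its highest value thus lay at 42.8 times the median in CA3, whereas no DG library was far from the others.

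Dcn had a median of 199.9 in CA1 with a range of 78.5 to 862, of 135 in CA3 (46.7 to 1393) and of 61.5 in DG (37.4 to 374). The DG median of decorin was below the lowest CA1 library. The median of Igfbp2 was 229 in CA3, against 136 in CA1 and 116 in DG. Its highest CA3, CA1 and DG libraries were at 5346, 3108 and 218. It was the only member besides Igf2 with its highest median in CA3.

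The median of Igf2 was 168 in CA3, against 156 in CA1 and 114 in DG, and its highest libraries in the same order reached 12935, 7363 and 340. For the sulfate transporter Slc13a4 the medians of CA1, CA3 and DG were 112, 92.6 and 80.9, and the highest libraries 1988, 4824 and 194. The medians of Slc6a13 were 61.1, 49.2 and 45.0, and those of Aldh1a2 38.2, 28.4 and 26.5, in CA1, CA3 and DG. For all 7 members the DG median was the lowest of the 3 subfields, and the highest library was the CA3 library of rat R9876.

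**Figure D1:**
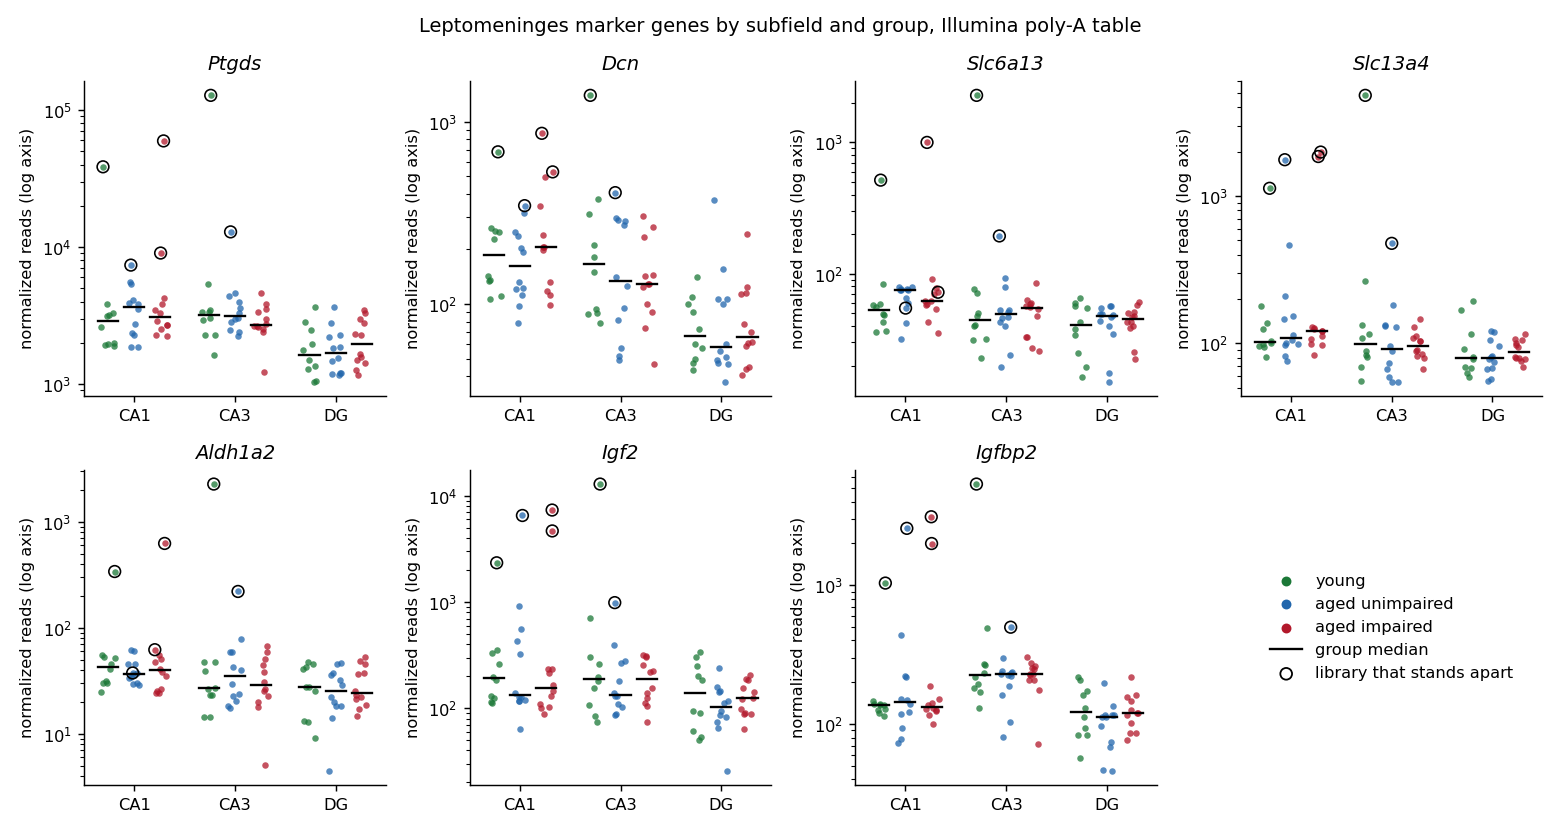
Normalized reads of each member (log axis) in the 34 libraries of each subfield, coloured by young, aged unimpaired and aged impaired rats, with bars at the group medians and rings around 6 libraries that stand apart. The ringed libraries lie in CA1 and CA3 and in all 3 groups of rats, and no DG library is ringed.

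A library was taken to stand apart when at least 3 members were at 4 times the median of its subfield or more in both poly-A tables. This rule was set after the values had been seen, and it chose 6 libraries. Just outside it, the CA1 library of rat R9862 had 2 members past 4 times the median, and the CA3 library of rat R2221 (Igf2) and the DG library of rat R2232 (Dcn) had 1 each. By Ion Proton only, the CA1 library of rat R1931 also had 1 (Dcn, at 4.69 times). The same 6 libraries had at least 3 such members in the WT table. They came from 2 young rats (CA3 of rat R9876, CA1 of rat R2175), 2 aged unimpaired rats (CA3 of rat R9862, CA1 of rat R9865) and 2 aged impaired rats (CA1 of rats R2231 and R9870). None of the 6 lay nearer to another subfield by its marker genes. Of the libraries just outside the rule, DG of rat R2232 did, lying nearer to CA1 in both poly-A tables.

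In the CA3 library of rat R9876, Ptgds was at 128125 normalized reads, Dcn at 1393, Slc6a13 at 2279 and Slc13a4 at 4824. Aldh1a2 was at 2265 in that library, Igf2 at 12935 and Igfbp2 at 5346. These values were 42.8, 10.3, 46.3, 52.1, 79.8, 77.0 and 23.3 times the CA3 medians of the same genes. Each was the highest value of its gene in the table. In the Ion Proton table the 7 folds ran from 11.3 to 80.0 and in the WT table from 9.17 to 55.4, so the excess was present in all 3 tables.

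The CA1 and DG libraries of rat R9876 did not share the excess. Over the 7 members the folds ran from 0.551 to 1.68 in its CA1 library and from 1.14 to 2.18 in its DG library. Of the other libraries of the 5 remaining rats, CA1 of rat R9862 had Igf2 at 5.88 times the median, and no member in the rest was past 3.92 times, the fold of Dcn in DG of rat R2231. CA1 of rat R9862, whose CA3 library is among the 6, also had Slc13a4 at 4.12 and Igfbp2 at 3.21 times.

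The 6 libraries showed 2 patterns. In CA3 of rats R9876 and R9862 and in CA1 of rats R2231 and R2175, all 7 members were above every library of the same subfield outside the 6. By Ion Proton there were exceptions. Dcn in CA1 of rat R1931 (865) was above that of rats R2231 (824) and R2175 (691), and Igfbp2 in CA3 of rat R2221 (513) was above that of rat R9862 (402). In CA1 of rat R2231 the folds ran from 4.31 for Dcn to 30.1 for Igf2, in CA1 of rat R2175 from 3.41 for Dcn to 15.1 for Igf2, and in CA3 of rat R9862 from 2.174 for Igfbp2 to 7.76 for Aldh1a2. Ptgds was at 59576, 38548 and 12913 normalized reads in these 3 libraries. Decorin had the lowest or next to lowest fold of the 7 members in all 4.

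In CA1 of rats R9865 and R9870, Igf2 was at 6541 and 7363 normalized reads, which is 42.1 and 47.3 times the median. Igfbp2 was at 18.8 and 22.8 times and Slc13a4 at 15.7 and 17.7 times. Slc6a13 was at 0.897 and 1.18 times its median, Aldh1a2 at 0.984 and 1.63 times, Ptgds at 2.33 and 2.85 times, and Dcn at 1.73 and 2.65 times. Ptgds, at 7388 and 9048 normalized reads, was still above the 5602 of the highest CA1 library outside the 6, and Dcn was so in rat R9870 (530 against 495). By Ion Proton the folds of Ptgds were 3.45 and 4.12. The GABA transporter and the retinoic acid enzyme were thus near their usual level in the same libraries in which the growth factor was among its highest.

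The proportions of the excess separated the same libraries. For every 100 normalized reads of Igf2 above the subfield median, the 4 libraries with all members high had 980 to 1616 reads of Ptgds above the median. The corresponding excess of Slc6a13 was 17.5 to 20.8, and that of Aldh1a2 was 13.0 to 23.4. In CA1 of rats R9865 and R9870 the excess of Ptgds per 100 of Igf2 was 65.9 and 81.5, that of Slc6a13 was -0.0985 and 0.156, and that of Aldh1a2 was -0.00946 and 0.334. Igfbp2 had 32.8 to 41.1 in the 4 libraries against 38.0 and 41.2 in the other 2, which overlap in the Illumina table only: it had 21.9 to 41.3 against 61.4 and 74.1 by Ion Proton and 31.5 to 50.3 against 59.6 and 55.9 in the WT table. Slc13a4 had 37.1 to 46.9 against 25.86 and 26.02.

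**Figure D2:**
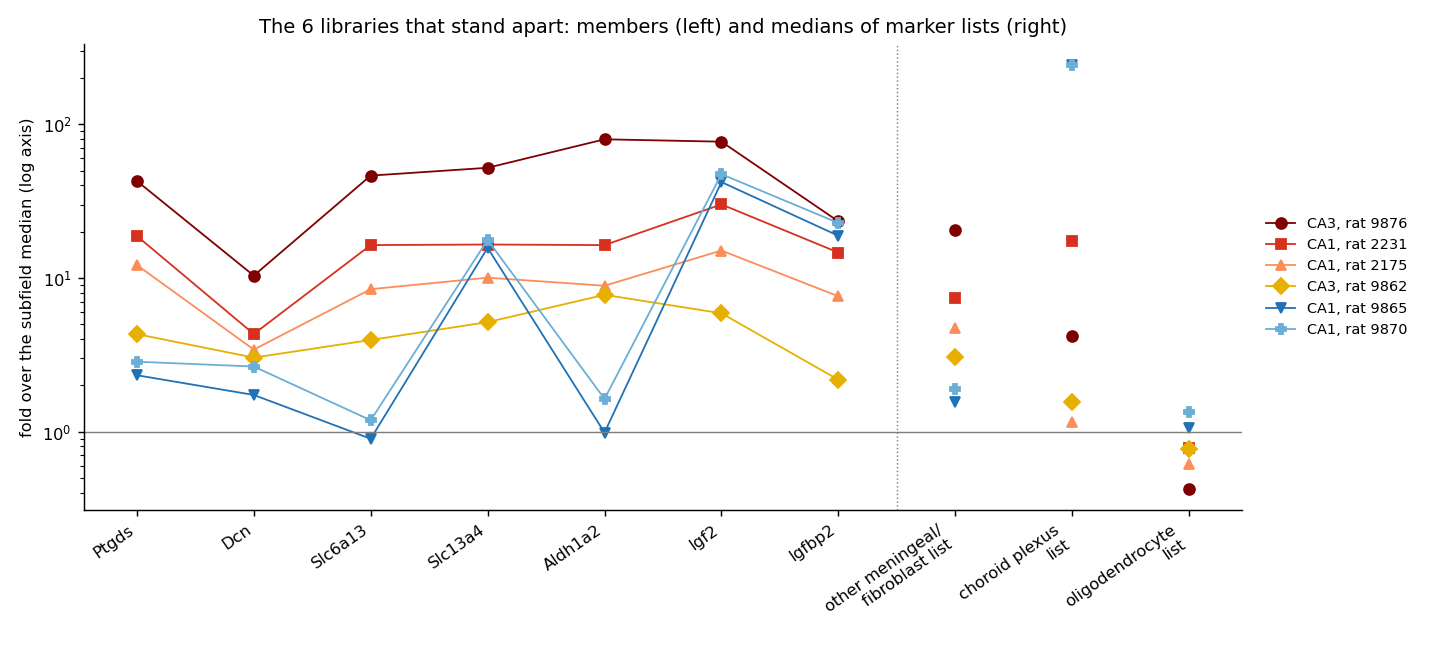
Fold over the subfield median (log axis) of the 7 members in the 6 libraries that stand apart, joined by lines, and of the median gene of 3 marker lists to the right of the dotted line. In CA1 of rats R9865 and R9870 only Slc13a4, Igf2 and Igfbp2 are above 4-fold and the choroid plexus list is above 200-fold, while CA3 of rat R9876 has every member above 10-fold.

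Marker lists of other cell types moved with these patterns. Of 26 further leptomeningeal and fibroblast genes, 25 were listed and 16 passed the filter on low values. In CA3 of rat R9876 their median fold over the CA3 median was 20.6, and 14 of the 16 were above every CA3 library outside the 6. Col1a1, a chain of type I collagen, was at 3211 normalized reads there against 10.6 to 101 in the CA3 libraries outside the 6, and Tbx18, a transcription factor of the mural and meningeal lineage, at 783 against 7.11 to 61.4. The median fold of the list was 7.42 in CA1 of rat R2231, 4.69 in CA1 of rat R2175 and 3.07 in CA3 of rat R9862, but 1.56 and 1.88 in CA1 of rats R9865 and R9870. Summed over the list, the libraries outside the 6 held 958 to 2332 normalized reads in CA1, 1001 to 2327 in CA3 and 1048 to 2163 in DG. Crabp2, a retinoic acid-binding protein on this list, was at 0 in every library of the Illumina table.

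The choroid plexus list held 14 genes, all listed, and 11 of its 15 rows passed the filter. Its median fold was 243 and 242 in CA1 of rats R9865 and R9870, where all 11 were above every CA1 library outside the 6. Ttr, the thyroid hormone carrier secreted by choroid plexus epithelium, was at 118480 and 143336 normalized reads in these libraries against 0 to 20869 in the CA1 libraries outside the 6. In CA1 of rat R2231 the list was at 17.5-fold with Ttr at 10898, whereas it was at 4.16-fold in CA3 of rat R9876, 1.56-fold in CA3 of rat R9862 and 1.15-fold in CA1 of rat R2175. The list was also at 50.02-fold in CA1 of rat R9862 and 25.2-fold in CA3 of rat R2221, the 2 libraries just outside the rule in which Igf2 was 5.88 and 4.24 times the median.

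Genes of border macrophages were at 17.3 times the median in CA3 of rat R9876 and at 1.06 to 4.03 times in the 5 others. In CA3 of rat R9876 endothelial genes were at 2.95 times, mural genes at 2.89 times, astrocyte genes at 1.04 times and mature oligodendrocyte genes at 0.425 times the median. The myelin gene Mbp was at 29943 normalized reads there, below the 31193 of the lowest CA3 library outside the 6. In bulk tissue, more cells of a type and more RNA per cell cannot be told apart, and the part of each cell type in the members' excess was not tested.

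The comparison of subfields asked where in the hippocampus each gene was most abundant. All 7 members were called higher in CA1 than in DG (limma, Benjamini-Hochberg adjusted p under 0.05 over all genes tested), in a comparison in which 55.6% of all genes were called and 29% were called higher in CA1. The largest difference was that of Dcn, 1.37 ± 0.21 on the log2 scale (SE, 34 rats a subfield, adjusted p = 4.6e-08). Igf2 was higher by 1.15 ± 0.33 (adjusted p = 0.0019), Ptgds by 0.99 ± 0.22 (0.00010) and Slc13a4 by 0.87 ± 0.25 (0.0019). Aldh1a2 was higher by 0.77 ± 0.25, Slc6a13 by 0.75 ± 0.22 and Igfbp2 by 0.74 ± 0.24, with adjusted p of 0.0068, 0.0025 and 0.0069 from limma.

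Without the 6 libraries that stand apart, all 7 differences were smaller and 6 stayed past the threshold, where 53.2% of all genes were called. They were 1.163 for Dcn, 0.67 for Ptgds, 0.59 for Igf2, 0.54 for Aldh1a2, 0.53 for Slc6a13 and 0.43 for Slc13a4, while Igfbp2 was at 0.28 with an adjusted p of 0.057 (limma). The median member was higher by 0.87 with all libraries and by 0.54 without the 6, where the median of all genes was 0.003 in both. In the Ion Proton table all 7 differences lay above 0 as well, from 0.49 to 1.26, and 4 were called (Dcn, Ptgds, Slc13a4 and Igf2), with 30.2% of all genes called there and 26.9% called in one direction in both poly-A tables. Without the 6 libraries, 2 of 7 were called by Ion Proton (26.3% of all genes). In rats numbered from 9000 up, 3 of 7 were called in the Illumina table (36.3% of all genes), or 4 of 7 without the 6 libraries (34.7%), and without the 13 libraries nearer to another subfield all 7 were (59.6%).

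CA3 exceeded DG by 1.07 ± 0.24 for Igfbp2 (adjusted p = 9.9e-05), by 0.97 ± 0.21 for Dcn (5.3e-05), by 0.92 ± 0.22 for Ptgds (0.00030) and by 0.81 ± 0.33 for Igf2 (0.030), each from limma with 34 rats a subfield. These 4 of 7 members compare with 55.6% of all genes called and 28.9% called higher in CA3. Without the 6 libraries (54.8% of all genes called) the same 4 were called, at 0.90, 0.83, 0.69 and 0.55. Leaving out the CA3 library of rat R9876 alone took Igf2 to 0.62 with an adjusted p of 0.066, so that 3 members were called (54.9% of all genes). In both poly-A tables, 3 members were called (Ptgds, Dcn and Igfbp2) and 28.5% of all genes. Slc6a13, Slc13a4 and Aldh1a2 had differences of 0.41, 0.37 and 0.48 with all libraries and of 0.18, 0.13 and 0.21 without the 6, none past the threshold. With the rat as a replicate block, which pairs the 3 subfields of an animal, Slc6a13 was also called (adjusted p = 0.048, 59.9% of all genes called). Without the 13 libraries nearer to another subfield, 3 of 7 were called (59.6% of all genes). edgeR called all 7 (57.3% of all genes). In rats below 9000 only Ptgds and Igfbp2 were called (62% of all genes), and in rats from 9000 up only Dcn and Aldh1a2 (39.7%). Without the 6 libraries Ptgds, Igf2 and Igfbp2 were called below 9000 (62.3%) and Dcn from 9000 up (37.4%).

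Between CA1 and CA3, 0 of the 7 members were called by limma with all libraries, where 35.4% of all genes were called, and 1 had an unadjusted p under 0.05. edgeR called 0 of 7 members and 36.4% of all genes, and 0 members and 14.4% of all genes were called in both poly-A tables. The outcome turned on the libraries that stand apart. Without the CA3 library of rat R9876, Slc13a4 was higher in CA1 by 0.67 (adjusted p = 0.0088), Slc6a13 by 0.51 (0.018) and Dcn by 0.49 (0.042), where 37.1% of all genes were called, and edgeR then called 6 of 7 members and 38.7% of all genes. Without all 6 libraries (36.8% of all genes called), Slc6a13 was higher in CA1 by 0.35 (adjusted p = 0.024) and Slc13a4 by 0.29 (0.043), Dcn was at 0.34 (0.16), and Igfbp2 was lower in CA1 by 0.61 ± 0.13 (9.6e-05). Ptgds and Igf2 were then at -0.03 and 0.04. With the rat as a replicate block as well, the count of called members was higher (41.4% of all genes called). Igfbp2 was the member called in the Ion Proton table without the 6 libraries, where its difference was -0.76 and 17.2% of all genes were called. Without the 13 libraries nearer to another subfield, 0 of 7 members were called by limma (43.9% of all genes).

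**Figure D3:**
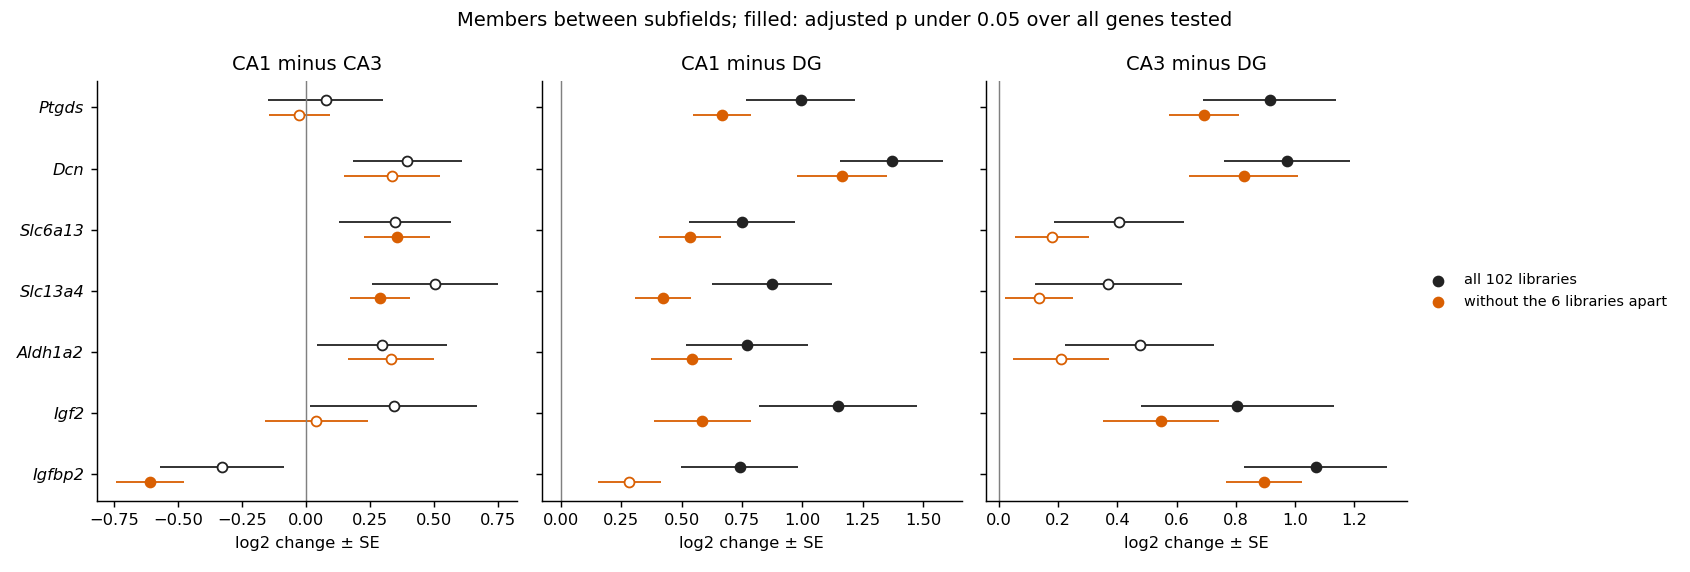
Log2 change ± SE of each member between subfields from limma, with all libraries and without the 6 that stand apart, filled where the adjusted p over all genes was under 0.05. Every value is above 0 for CA1 minus DG and for CA3 minus DG, and for CA1 minus CA3 only Igfbp2 lies clearly below 0.

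Other cell type lists differed between the subfields beside the members. All 10 mature oligodendrocyte genes were called higher in CA1 than in DG and in CA3 than in DG, with median differences of 0.73 and 0.90, beside 55.6% of all genes in either contrast. All 10 were called in both poly-A tables too. All 8 endothelial genes were called higher in CA1 than in DG (median 0.46), and 7 of 11 choroid plexus rows (median 1.103), or 2 of 10 without the 6 libraries (median 0.55). Called higher in CA1 than in DG in both poly-A tables were 5 of 8 endothelial genes, 5 of 11 choroid plexus rows, 4 of 7 mural genes and 3 of 5 blood genes, beside 26.9% of all genes. The 5 ependymal genes tested were all called higher in CA3 than in DG in both poly-A tables (median 1.43, beside 28.5% of all genes), and 3 of them were called lower in CA1 than in CA3 (median -1.28, beside 14.4%). The part of these cell types in the differences of the members was not tested. Ptgds has oligodendrocytes among its known further sources, and Igfbp2, Igf2 and Slc13a4 have the choroid plexus.

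Among the 16 other leptomeningeal and fibroblast genes that passed the filter, 11 were called higher and 1 lower in CA1 than in DG, 3 higher and 1 lower in CA3 than in DG, and 3 higher and 1 lower in CA1 than in CA3, beside 55.6%, 55.6% and 35.4% of all genes. The median differences were 0.60, 0.27 and 0.28. In both poly-A tables fewer were called: 2 higher (Bmp6, Pcolce) and 1 lower (Cemip) in CA1 than in DG, 2 higher (Lum, Serping1) and 1 lower (Cemip) in CA3 than in DG, and 1 higher (Cemip) and 1 lower (Lum) in CA1 than in CA3, beside 26.9%, 28.5% and 14.4% of all genes. Lum, which encodes lumican, a proteoglycan of the decorin family, was lower in CA1 than in CA3 by 1.49 ± 0.21 (adjusted p = 7.8e-09, limma). It was higher in CA3 than in DG by 1.53 ± 0.21. Cemip, a hyaluronan-degrading enzyme, was higher in CA1 than in CA3 by 0.93 and lower in CA3 than in DG by 1.46. Mgp, an inhibitor of calcification, was higher in CA1 than in CA3 by 0.53, and Serping1, the C1 inhibitor, was higher in CA3 than in DG by 0.90. Between CA1 and DG the largest differences were those of Col3a1 (0.90) and Col1a1 (0.79), fibrillar collagens, and Pcolce (0.78), an enhancer of collagen processing. Without the 6 libraries they were 0.58, 0.50 and 0.48, and by Ion Proton Col3a1 and Col1a1 did not pass the threshold (adjusted p = 0.23 and 0.075, limma).

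The partner genes of the members' pathways were called in both directions. Of 8 genes of the insulin-like growth factor pathway, 3 were called higher and 3 lower in CA1 than in DG, and of 9 genes of retinoic acid metabolism 3 were called higher and 2 lower, beside 55.6% of all genes. Called in both poly-A tables were 3 higher and 2 lower of the former and 2 higher and 2 lower of the latter, beside 26.9% of all genes. Igfbp4 was higher in CA1 by 1.61 ± 0.14 than in DG and by 0.88 than in CA3, and Igfbp6, which prefers Igf2 as its ligand, was higher in CA3 than in DG by 0.88. Crabp1, a retinoic acid-binding protein, was higher in CA1 than in DG by 1.68, and Cyp26b1, which degrades retinoic acid, was higher in CA1 than in CA3 by 1.41. Ptgs2, the inducible cyclooxygenase that makes the substrate of prostaglandin D synthase, was lower than in DG by 1.12 in CA1 and by 1.32 in CA3. Of the 4 sulfate genes tested, 1 was called higher in CA1 than in DG, and of the 3 GABA and taurine transporters also 1.

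The comparison of aged with young rats asked whether the genes changed with age in a subfield. In CA1, Ptgds ranged from 1901 to 38548 normalized reads in the 10 young rats (median 2882) and from 1853 to 59576 in the 24 aged rats (median 3384). Igf2 ranged from 112 to 2345 (median 192) in young and from 64.4 to 7363 (median 142) in aged CA1. The groups overlapped, and for both genes the lowest and the highest library were those of aged rats. In CA1, 0 of 7 members were called by limma, 0 had an unadjusted p under 0.05, and edgeR called 0, where limma called 0.338% and edgeR 0.169% of all genes. The differences ran from -0.17 to 0.29 with all libraries and from -0.11 to 0.29 without those that stand apart.

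In CA3, Ptgds ranged from 1642 to 128125 in young rats (median 3188) and from 1224 to 12913 in aged rats (median 2976). Igf2 ranged from 74.8 to 12935 (median 188) in young and from 73.5 to 988 (median 148) in aged CA3. The highest young value of every member was the library of rat R9876. All 7 differences were below 0 on the log2 scale, from -0.33 for Aldh1a2 to -0.65 for Igf2, but 0 of 7 were called by limma and 0 had an unadjusted p under 0.05, where 0% of all genes were called. edgeR, which compares means of reads, gave -2.80 for Igf2 with an adjusted p of 0.041 and called no other member and 0.0632% of all genes, although all 7 then had an unadjusted p under 0.05.

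Without the CA3 library of rat R9876 the direction was lost, with 0 of 7 members and 0.0281% of all genes called. The differences by limma were then 0.11 ± 0.21 for Ptgds, -0.15 ± 0.34 for Dcn, 0.20 ± 0.25 for Slc6a13 and 0.0012 ± 0.24 for Slc13a4. They were 0.31 ± 0.34 for Aldh1a2, -0.032 ± 0.34 for Igf2 and -0.095 ± 0.22 for Igfbp2. edgeR without that library called 0 of 7 and 0.00703% of all genes, and its value for Igf2 was -0.084. The difference between aged and young CA3 thus rested on 1 of 34 libraries.

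In DG, where no library stood apart, Ptgds ranged from 1038 to 3643 in young rats (median 1634) and from 1158 to 3674 in aged rats (median 1750). Igf2 ranged from 49.7 to 340 (median 140) in young and from 25.9 to 237 (median 114) in aged DG. The groups overlapped. The differences of the 7 members ran from -0.24 to 0.12, and 0 of 7 were called by limma, by edgeR or by DESeq2, with 0 at an unadjusted p under 0.05, where limma called 0.3% and edgeR 0.264% of all genes. By a screen with the cut-offs of the study's methods, an Illumina p under 0.01 followed by a one-sided Ion Proton p under 0.05, but with p from limma where the study used DESeq2, 0 of 7 members passed in any subfield, where 0.851% of all genes passed in CA1, 0.402% in CA3 and 1.09% in DG.

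**Figure D4:**
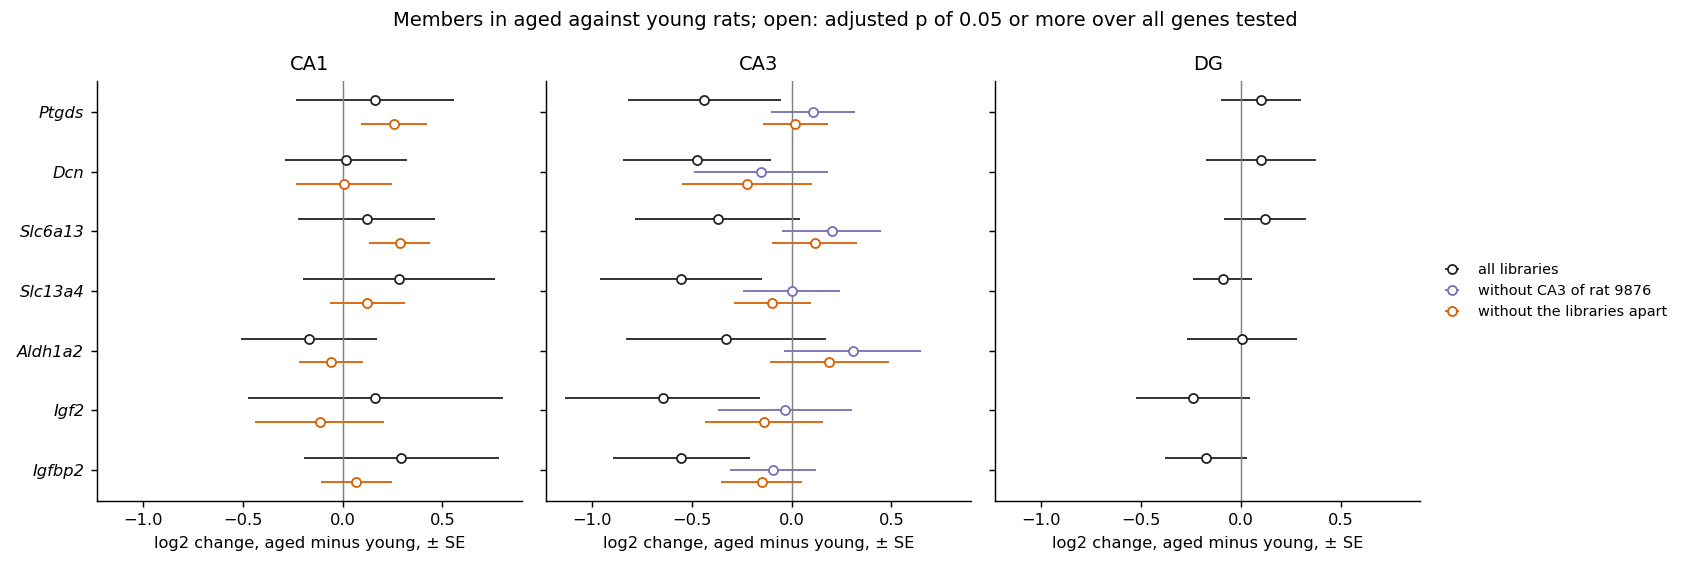
Log2 change ± SE of each member in aged minus young rats by subfield from limma, with all libraries, without CA3 of rat R9876 and without the libraries that stand apart; none had an adjusted p under 0.05. In CA3 all 7 values lie below 0 with all libraries and scatter on either side of 0 without rat R9876.

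The effect of age did not differ between subfields past the threshold for any member. With all libraries or without those that stand apart, 0 of 7 members were called by limma in a test of the difference for each pair of subfields, and 0% of all genes. Against young rats, neither aged unimpaired nor aged impaired rats had a called member in any subfield, with 0 of 7 at an unadjusted limma p under 0.05 in each of the 6 comparisons, where 0% to 0.0998% of all genes were called (0.0212% for impaired rats in CA1, 0.0998% for impaired and 0.05% for unimpaired rats in DG, 0% in the rest). Of the 17 (CA1, CA3) or 16 (DG) other leptomeningeal and fibroblast genes tested, 0 were called between aged and young rats in any subfield. Of all genes, 0.338% were called in CA1, 0% in CA3 and 0.3% in DG, so a list of this size would rarely hold a call.

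The comparison of aged impaired with aged unimpaired rats asked whether the genes tracked maze performance. In CA1, Ptgds ranged from 2231.9 to 59576 in impaired rats (median 3098) and from 1853 to 7388 in unimpaired rats (median 3668). Igf2 ranged from 88.4 to 7363 (median 156) and from 64.4 to 6541 (median 134). The impaired group held 2 CA1 libraries that stand apart and the unimpaired group 1, and the groups overlapped. Differences ran from 0.02 to 0.50 with all libraries, and from -0.45 to 0.29 without those that stand apart, when 1 of 7 rather than 7 of 7 lay above 0. Of the members, 0 of 7 were called by limma or edgeR in CA1, CA3 or DG and 0 had an unadjusted limma p under 0.05, where either tool called 0% of all genes in each subfield. By the screen over both poly-A tables, none of the 7 passed, beside 0.635%, 0.0216% and 0.124% of all genes in the 3 subfields.

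In CA3 the range of Ptgds was 1224 to 4638 in impaired rats (median 2708) and 2261 to 12913 in unimpaired rats (median 3157), and the members' differences ran from -0.41 to 0.05. In DG it was 1163 to 3447 (median 1968) and 1158 to 3674 (median 1692), and the differences ran from -0.02 to 0.34. The highest unimpaired value in CA3 was that of rat R9862, a library that stands apart.

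More members were called between the 2 number series of rats than between groups of rats. Without the libraries that stand apart, the series differed in 6 of 7 members in CA1 (33.7% of all genes called), in 3 of 7 in CA3 (49.5%) and in 3 of 7 in DG (29.8%). In DG, rats numbered from 9000 up had Ptgds at 1289 to 3674 normalized reads (median 2379) against 1038 to 2846 (median 1398) below 9000. Igf2 was at 54.1 to 340 (median 171) against 25.9 to 303 (median 89.3). The log2 differences in DG were 0.78 for Ptgds, 0.83 for Igf2 and 0.60 for Igfbp2, the members called there. Ptgds and Igf2 were called in DG in the Ion Proton table too, at 0.73 and 0.80, where 20% of all genes were called.

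Dcn moved in opposite directions in CA1 and CA3. Without the libraries that stand apart, CA1 libraries had 120 to 495 normalized reads of Dcn (median 238) in the 16 rats below 9000 and 78.5 to 202 (median 115) in the 14 rats from 9000 up. CA3 libraries had 52.1 to 271 (median 96.8) in 18 rats below 9000 and 46.7 to 374 (median 248) in 14 rats from 9000 up. The higher series was lower by 0.97 ± 0.14 in CA1 (adjusted p = 7.5e-06) and higher by 0.84 ± 0.26 in CA3 (0.0073, limma), and these effects differed by -1.80 ± 0.34 (8.8e-06). In the Ion Proton table the same difference was -1.96 ± 0.38 (4.9e-05). The effect within a subfield was fitted with age as a covariate and the difference between subfields in a joint fit without it, so the parts need not add up to the difference.

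The difference of decorin between CA1 and CA3 therefore depended on the series. Without the libraries that stand apart, CA1 was higher by 1.15 ± 0.23 in rats below 9000 (adjusted p = 2.1e-05), and from 9000 up the value was -0.65 ± 0.24, short of the threshold (0.064, limma). Below 9000, Slc6a13 and Aldh1a2 were also called higher in CA1 and Ptgds and Igfbp2 lower, 5 of 7 members (53.3% of all genes). From 9000 up 1 of 7 was called, Ptgds, which was higher in CA1 (12.3%). With the libraries that stand apart kept, 5 of 7 were called below 9000 (55.4%), with Slc13a4 in place of Ptgds, and 0 of 7 from 9000 up (13.7%). Ptgds was higher in the higher series in CA1 (0.66) and not in CA3 (-0.31), and the joint fit gave a difference of 0.93 ± 0.19 (adjusted p = 4.3e-05). Such differences of the series were called for 37.1% of all genes between CA1 and CA3 (11.8% in the Ion Proton table), 0.813% between CA1 and DG and 47.8% between CA3 and DG.

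Subfield markers moved with the series as well. All 4 CA1 marker genes that passed the filter were called higher in CA3 libraries of the higher series than in those of the lower, by a median of 1.00, and 5 of 7 CA3 marker genes were called lower there, with a median of -1.12, beside 49.5% of all genes called there. By its sum this CA3 list was no higher in CA3 than in DG libraries (median 5566 against 5938). Mature oligodendrocyte genes were called higher in the higher series in CA1 (9 of 10) and DG (10 of 10) and lower in CA3 (10 of 10), and choroid plexus genes higher in CA1 (10 of 11, median 2.06), beside 33.7% of all genes in CA1, 29.8% in DG and 49.5% in CA3. Their part in the differences of the members was not tested.

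**Figure D5:**
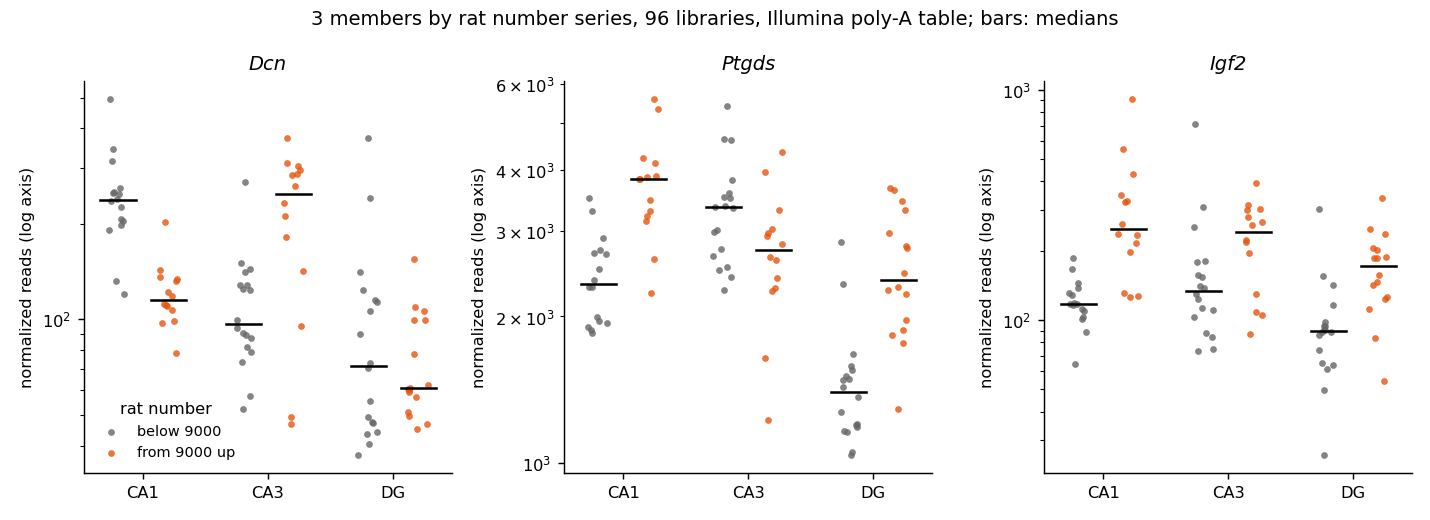
Normalized reads (log axis) of Dcn, Ptgds and Igf2 in the 96 libraries outside the 6, by subfield and by rats numbered below 9000 or from 9000 up, with bars at the medians. Dcn is lower in CA1 and higher in CA3 in the higher series, and Igf2 is higher in all 3 subfields by its median.

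With the 6 libraries left out, the members still varied together from rat to rat, most so in DG. Over the 34 DG libraries all 21 pairs of members had a rank correlation above 0, from 0.26 to 0.85 with a median of 0.61. Over 30 CA1 libraries the pairs ran from -0.64 to 0.72 (median 0.27), and over 32 CA3 libraries from -0.40 to 0.74 (median 0.24). The highest pairs were Slc13a4 and Igf2 in CA1 and Aldh1a2 and Igf2 in CA3 and DG. Dcn ran against Igf2 in CA1 (-0.64) and against Ptgds in CA1 and CA3 (-0.46 and -0.40). These are descriptions over libraries that differ in depth and number series. In DG the 7 deeply sequenced rats had lower Slc6a13 than every other rat, and their part in the correlations was not tested.

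The genes whose pattern was most like that of the members were ranked by the rank correlation of their values with the mean standardised value of the 7 members, averaged over the 3 subfields without the CA3 library of rat R9876. Of 14172 genes, which had a median of -0.01, the highest were Lamb2 (0.83), Myl9 (0.82), Bcam (0.81), Flna (0.77) and Ttr (0.76). Lamb2 encodes a basement membrane laminin, Myl9 a myosin light chain of smooth muscle, Bcam a laminin-binding surface protein, Flna an actin cross-linker and Ttr transthyretin. Each was computed over 33 or 34 libraries a subfield. The order was not the same in every set. By Ion Proton the 5 genes had 0.69, 0.68, 0.72, 0.74 and 0.71 and ranked 15, 21, 7, 2 and 9, and the highest there were Slc5a5, Flna, Zic2, Col1a2 and Bgn. In the Illumina table without the 6 libraries Ttr ranked 7, and with all libraries Flna ranked 7 and Ttr 12.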

How the data were processed

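RNA of CA1, CA3 and DG from 34 male Fisher 344 rats was measured in 3 tables, Illumina poly-A, Ion Proton poly-A and WT. Per the labels and methods, the authors trimmed Illumina reads with cutadapt 1.8.3, aligned them with STAR 2.5 to rn5, counted genes with featureCounts 1.4.4 and normalized with DESeq2, whose version is 1.16.1 in the submitters' processing notes and an earlier one in the methods. The values deposited by the authors are a signal, gene counts divided by a size factor per library, from which whole reads were recovered (100% within a tolerance of 0.05). Whether reads were counted by strand is not given in the sources used here, and replicate libraries were not pooled.

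Genes with a mean value of at least 10 were tested with limma 3.58.1 (R 4.3.3) on log2(value + 1) in each table, with Benjamini-Hochberg adjustment over all genes tested, and called at an adjusted p under 0.05. Log2 changes of low genes are understated on this scale. edgeR 4.0.16 and DESeq2 1.42.0 on the recovered reads were alternatives. The fits were tested on simulated data. Subfields were fitted together and ages or cognitive groups within a subfield. Each rat is 1 sample of its group.

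The 3 subfield libraries of a rat come from the same animal: the deviations of 102 same-rat pairs correlated with a median r of 0.11, against -0.0059 over 3366 pairs from different rats, and the block results stand beside the counts they change.

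Members and lists were chosen with earlier results of these data known. The text names all 7 members, up to 3 genes per comparison of the fibroblast and partner lists (largest change among those called whose Ion Proton change had the same sign), the 5 genes most like the members, and marker genes of the libraries that stand apart, the last chosen after their values were seen. Promoter sequences came from RefSeq (GRCr8), which matched 5 of 7 members, all except Dcn and Slc6a13. Correlations are descriptions.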

Additional observations from a re-analysis of the deposited data

Results flagged for a closer look

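In groups of 10 young rats, a member's highest library was marked when its gap to the next, divided by the range of the group, passed Dixon's critical value. Of 21 groups tested 14 were marked. Chance marks about 5% of independent groups, 1 in 20, but that share is no yardstick here: the genes were chosen by the CA3 values of rat R9876, so its 7 marks restate the choice, and all marks came from 2 libraries. The values are a description. In CA1 the library of rat R2175 was marked for all 7 members, with 38548 normalized reads of Ptgds, 683 of Dcn, 516 of Slc6a13, 1128 of Slc13a4, 339 of Aldh1a2, 2345 of Igf2 and 1035 of Igfbp2. In CA3 the library of rat R9876 was marked for all 7, with 128125 of Ptgds, 1393 of Dcn, 2279 of Slc6a13, 4824 of Slc13a4, 2265 of Aldh1a2, 12935 of Igf2 and 5346 of Igfbp2. Groups of aged rats hold 12 rats each and were not tested in this way.

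The effect of the rat number series differed between subfields in both poly-A tables for 3 results, each by limma's test of the difference without the libraries that stand apart. Of all genes, 37.1% (Illumina) and 11.8% (Ion Proton) were called for that difference between CA1 and CA3. Between CA3 and DG the shares were 47.8% and 18%, so such differences were not particular to the members. For Ptgds the effect in CA1 exceeded that in CA3 by 0.93, for Dcn it was below that in CA3 by a difference of -1.80, and for Ptgds the effect in CA3 minus that in DG was -1.09. The labels do not say what the number series mean.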

How the results depend on the processing

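Of the counts of members called, 126 alternatives stayed within 1.5 times the value reported. In age and cognition few or no genes of any kind were called, so a count of 0 there had little room to change and is no sign of stability. The others follow, with the share of all genes called in the same fit in brackets. Between CA1 and CA3 (0 called with all libraries) the count was 3 without CA3 of rat R9876 (37.1%), 3 without all libraries that stand apart (36.8%), 3 without them and with number series as a covariate (38.8%), 4 without them and with the replicate block (41.4%), 5 in rats below 9000 (55.4%), 5 and 1 in rats below and from 9000 up without the libraries that stand apart (53.3% and 12.3%), 6 by edgeR without CA3 of rat R9876 (38.7%) and 1 in the Ion Proton table without the libraries that stand apart (17.2%). Between CA1 and DG (7 called) it was 4 in the Ion Proton table (30.2%), 2 there without the libraries that stand apart (26.3%) 3 in rats from 9000 up (36.3%) and 4 in these without the libraries that stand apart (34.7%). Between CA3 and DG (4 called) it was 7 by edgeR (57.3%), 2 in rats below 9000 (62%) 2 in rats from 9000 up (39.7%) and 1 in these without the libraries that stand apart (37.4%). For age in CA3 (0 called) it was 1 by edgeR (0.0632%). The causes were not tested. Fits without the libraries that stand apart were added after the data had been seen.

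Directions were followed member by member for the 3 subfield contrasts and for age in CA3 only. They turned 43 times there, and none of them between CA1 and DG. For cognition in CA1, 7 of 7 members lay above 0 with all libraries and 1 of 7 without those that stand apart. Between CA1 and CA3, Ptgds was at -0.22 by DESeq2 and -0.22 by edgeR, -0.11 by Ion Proton and -0.26 there without the libraries that stand apart, -0.026 without them in the Illumina table, -0.037 with the series covariate too, and -0.078 without the subfield mismatches. Slc6a13 was at -0.22 by DESeq2, -0.21 by edgeR and -0.27 in rats from 9000 up, and Aldh1a2 at -0.67, -0.66 and -0.47. Dcn was at -0.67 in rats from 9000 up and -0.65 in these without the libraries that stand apart, and below 9000 without them Ptgds was at -0.45 and Igf2 at -0.28. Igfbp2 was at 0.011 by DESeq2 and 0.69 by edgeR without CA3 of rat R9876. Between CA3 and DG, Aldh1a2 was at -0.016 in the Ion Proton table without CA3 of rat R9876 and -0.11 there without the libraries that stand apart. In that table the CA3 libraries of rats R1931 and R9781 read 0 for Aldh1a2, and their part in these values was not tested.

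For age in CA3 without CA3 of rat R9876, values above 0 were, by limma, 0.11 for Ptgds, 0.20 for Slc6a13, 0.0012 for Slc13a4 and 0.31 for Aldh1a2, by edgeR 0.18, 0.29, 0.039 and 0.56, and by Ion Proton 0.076 for Ptgds, 0.14 for Slc6a13 and 0.18 for Slc13a4. Without the libraries that stand apart they were 0.018 for Ptgds, 0.11 for Slc6a13 and 0.19 for Aldh1a2, with the series covariate too 0.015, 0.12 and 0.20, and by Ion Proton 0.0021 for Ptgds, 0.041 for Slc6a13 and 0.0999 for Slc13a4. In rats below 9000 Dcn was at 0.13 and Aldh1a2 at 0.19.

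With all libraries the replicate block gave 0, 7 and 5 called members for the contrasts of CA1 with CA3, of CA1 with DG and of CA3 with DG (40.7%, 59.3% and 59.9% of all genes). No paired analysis was possible for age and cognition because each rat is in 1 group only. DESeq2 gave no adjusted p for 6 of the 7 members between subfields and in age and cognition in CA1 and age in CA3, so those calls are missing.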
